A study of Mus musculus with 8 samples.

Results

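Tysnd1, Clptm1, Tspan17, Trp53rka, Trp53rkb, Dgkg and Klra3 are 7 genes whose RNA was higher in mouse macrophages with a conditional knockout of PTIP than in wild-type macrophages. They were chosen by their deposited expression values, which were higher in knockout than in wild-type samples at 0 h or after LPS. That genotype difference is therefore described below without a test. All 7 were found among the 55226 genes of the deposited table, and all 7 passed the filter on low values, a mean rlog of at least 3, which left 11543 genes to test. An rlog is a log2 expression value that the regularised log transformation pulls toward a gene's mean where reads are few. It is not corrected for gene length, so levels are compared between samples and not between genes.

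RNA came from bone marrow-derived macrophages of C57BL/6 mice, which are grown from bone marrow cells. The marrow of hindlimb femurs was cultured for 7 days with 10% serum and 10 ng/ml of M-CSF, the growth factor that drives macrophage differentiation. The 4 groups held 2 samples each. They were PtipcKO (called cKO) at 0 h, PtipcKO after 6 h of LPS at 100 ng/ml, PtipWT (called WT) at 0 h and PtipWT after 6 h of LPS at the same dose. LPS is a bacterial cell wall component that activates macrophages. Neither the Cre driver nor the deleted exons of Paxip1, the gene of PTIP, are given in the sources used here. The series text calls the samples biological replicates, and no label ties a replicate number to a mouse. The p-values below therefore reflect only how far these particular samples differ, which may be technical. The design asks how loss of PTIP, an adaptor protein of histone H3 lysine 4 methyltransferase complexes, alters macrophages at rest and after LPS.

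The 7 proteins have unrelated jobs. Tysnd1 is a protease of the peroxisome, the organelle that shortens very long fatty acids, and it cuts enzymes of that pathway. Clptm1 is a membrane protein of the endoplasmic reticulum, known in neurons for holding back GABA-A receptors on their way to the cell surface. Tspan17 is a TspanC8 tetraspanin, a membrane protein that escorts the sheddase Adam10. Trp53rka and Trp53rkb are the mouse copies of a kinase that was named for phosphorylating p53 and that belongs to KEOPS, the complex that makes the t6A modification of tRNA. Dgkg, diacylglycerol kinase gamma, converts the lipid messenger diacylglycerol to phosphatidic acid. Klra3 encodes a Ly49 receptor, a lectin known from natural killer cells that binds MHC class I.

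Trp53rka and Trp53rkb are near copies of each other, and their sequences set how far their values can be read apart. The coding sequences, both 732 bases, differed at 11 bases with 0 gaps, which is 98.5% identity. The first 210 coding bases are shown 5′ to 3′ from the GENCODE M21 transcripts of GRCm38. They lie in 1 exon each, at chr2:165493093-165493302 on the minus strand for Trp53rka and at chr2:166793813-166794022 on the plus strand for Trp53rkb. Capitals mark the bases that differ.
Trp53rka: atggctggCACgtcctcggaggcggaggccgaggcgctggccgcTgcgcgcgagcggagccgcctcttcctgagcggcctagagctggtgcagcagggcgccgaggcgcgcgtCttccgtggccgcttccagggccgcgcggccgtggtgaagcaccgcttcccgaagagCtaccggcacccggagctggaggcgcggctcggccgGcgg
Trp53rkb: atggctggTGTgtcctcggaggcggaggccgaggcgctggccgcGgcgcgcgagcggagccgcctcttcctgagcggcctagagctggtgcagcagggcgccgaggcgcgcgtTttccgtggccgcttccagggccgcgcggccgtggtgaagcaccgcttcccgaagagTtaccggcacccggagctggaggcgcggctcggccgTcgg
Long lower-case runs between the capitals are stretches in which a read that lies wholly inside cannot be assigned to a single copy. Over the whole transcripts, 564 of the 1831 windows of 50 bases in Trp53rka (30.8%) were also found in Trp53rkb. The same 564 windows were 12.9% of the 4377 windows of the longer Trp53rkb transcript. How reads that match both were counted is not given in the sources used here, so each gene's value may hold reads of the other. Klra3 shared 256 of 1189 windows (21.5%) with 6 other genes, most of all with its family member Klra9 (14.0%). Dgkg shared 3 of 3506 windows (0.0856%), and Tysnd1, Clptm1 and Tspan17 shared 0.

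The promoter windows of Tysnd1, Clptm1 and Tspan17 are shown because these genes had the largest genotype differences after LPS among members without near copies, and the last 2 had the closest profiles of any member pair. They run from 250 bases before to 50 bases after the start of the gene, 5′ to 3′ on the gene's strand, from RefSeq with build GRCm38.p6. The window of Tysnd1 is chr10:61695336-61695635 on the plus strand, taken at the first of 2 listed starts. That of Clptm1 is chr7:19664981-19665280 on the minus strand, and that of Tspan17 is chr13:54789155-54789454 on the plus strand. Capitals mark matches to GGGCGG (the GC box core), CCAAT and ATGGCGG, searched with TATAAA on both strands. These letters were chosen after the windows had been read, and no capitalised matches overlap.
Tysnd1: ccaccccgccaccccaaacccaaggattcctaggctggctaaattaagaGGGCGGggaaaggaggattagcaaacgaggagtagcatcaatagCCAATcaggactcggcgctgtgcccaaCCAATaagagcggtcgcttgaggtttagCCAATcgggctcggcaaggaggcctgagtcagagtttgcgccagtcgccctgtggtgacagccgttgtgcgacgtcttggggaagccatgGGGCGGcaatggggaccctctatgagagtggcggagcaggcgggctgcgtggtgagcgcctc
Clptm1: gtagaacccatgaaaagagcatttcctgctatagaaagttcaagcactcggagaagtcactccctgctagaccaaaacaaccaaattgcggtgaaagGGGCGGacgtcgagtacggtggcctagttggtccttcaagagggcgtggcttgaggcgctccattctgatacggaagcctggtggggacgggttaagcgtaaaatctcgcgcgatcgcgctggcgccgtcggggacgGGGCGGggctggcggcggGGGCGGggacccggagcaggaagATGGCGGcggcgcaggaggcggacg
Tspan17: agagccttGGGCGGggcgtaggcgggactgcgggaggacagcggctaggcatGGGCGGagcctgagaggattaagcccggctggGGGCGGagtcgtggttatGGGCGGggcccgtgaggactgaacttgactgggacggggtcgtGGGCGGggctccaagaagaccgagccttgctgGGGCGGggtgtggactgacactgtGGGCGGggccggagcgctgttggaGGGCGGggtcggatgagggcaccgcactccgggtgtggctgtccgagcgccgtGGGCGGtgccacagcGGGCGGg
GGGCGG occurred 10 times in the window of Tspan17, 3 times in that of Clptm1 and 2 times in that of Tysnd1. At least 1 GGGCGG was in 5 of the 7 windows, and 35.7% of 32851 mouse promoter windows hold it. ATGGCGG was in the windows of Clptm1, Trp53rka and Trp53rkb, 3 of 7, against 4.05% of all windows. CCAAT occurred 3 times in the window of Tysnd1 and 1 time in that of Klra3 (37.4% of all windows), and TATAAA occurred in that of Klra3 (13.6% of all windows). A match describes letters only. The windows of Trp53rka and Trp53rkb aligned with 69.9% identity, and a match in both is not independent.

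The genotype labels were checked with Paxip1, the targeted gene. Its rlog was 2.54 and 2.48 in the cKO samples at 0 h, against 4.50 and 4.50 in WT. After LPS it was 2.54 and 2.63 in cKO, against 3.82 and 4.08 in WT. The cKO-minus-WT difference was -1.99 at 0 h (SE 0.18, adjusted p = 0.00686) and -1.36 after LPS (SE 0.18, adjusted p = 0.0156). These are Benjamini-Hochberg values from limma over 11543 genes. In the authors' deposited table the log2 fold changes of Paxip1 were -4.75 at 0 h and -4.04 after LPS, larger losses than on the rlog scale. The call at 0 h was lost without cKO 0 h replicate 2 (adjusted p = 0.0625) or WT 0 h replicate 1 (0.0732) and with the samples of that time only (0.0544), and the call after LPS without either cKO LPS library or WT LPS replicate 1 (0.0642 to 0.15). All 10 macrophage markers were tested, and their summed rlog was 114.1 to 115.7 over the 4 cKO samples and 118.0 to 121.8 over the 4 WT samples. Itgam and Mertk, both macrophage surface proteins, were called lower in cKO after LPS, at -1.11 (SE 0.17, adjusted p = 0.0178) and -1.10 (SE 0.18, adjusted p = 0.0197). Both calls were lost without either cKO LPS library, without WT LPS replicate 1 and with no filter on low values, and that of Mertk also without WT LPS replicate 2. An rlog below 1 in every sample was found for 7 of 10 T cell, 5 of 10 neutrophil, 5 of 7 fibroblast, 3 of 7 B cell, 2 of 7 mast cell, 1 of 7 dendritic cell and 6 of 6 erythroid markers. Other markers of these lists were higher. The highest rlog was 8.06 for T cell, 8.35 for neutrophil and 8.7 for B cell markers. It was 8.19 for mast cell, 11.43 for dendritic cell, 3.97 for fibroblast and 0.92 for erythroid markers. In bulk samples, fewer cells of a type and less RNA per cell cannot be told apart. Across genes, which are not independent replicates, the 2 samples within each group had r = 0.987 to 0.992. No read counts were used, so depth per sample is unknown.

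Tysnd1 had an rlog of 5.95 and 7.73 in the cKO samples at 0 h, against 4.54 and 4.68 in WT. After LPS it had 7.68 and 8.12 in cKO, against 4.51 and 4.38 in WT. Every cKO sample was above every WT sample, but cKO replicate 1 at 0 h lay between the WT samples and the other 3 cKO samples. The cKO-minus-WT difference was 2.23 at 0 h and 3.46 after LPS (SE 0.48 each). The difference after LPS ranked 1 among 11543 genes and that at 0 h ranked 6. Leaving out cKO 0 h replicate 2 gave 1.34 at 0 h. In the authors' deposited table the log2 fold changes were 3.17 at 0 h and 4.56 after LPS.

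**Figure D1:**
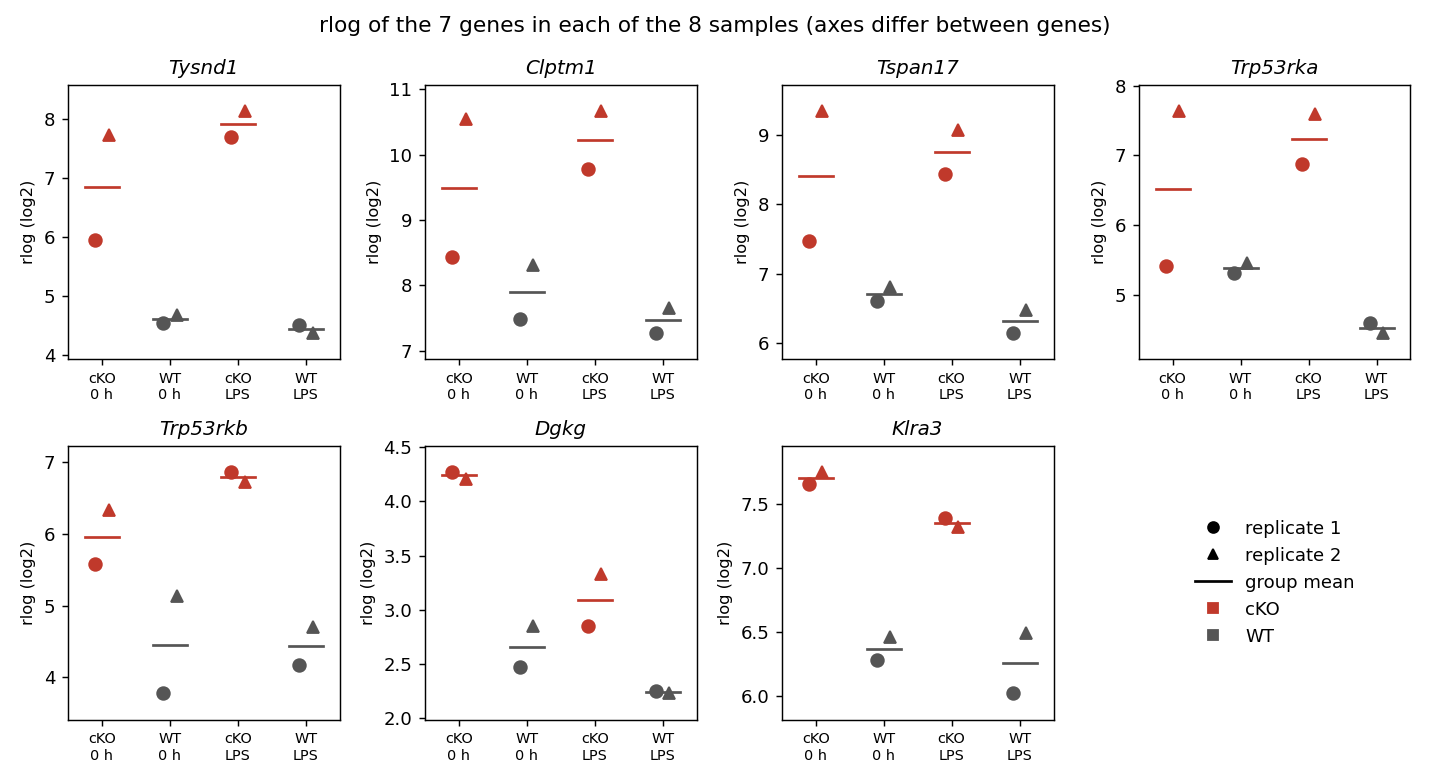
rlog (log2) of each of the 7 genes in all 8 samples, with cKO in red and WT in grey, circles for replicate 1, triangles for replicate 2 and a line at the group mean. The y axes differ between genes and do not start at 0. At 0 h replicate 2 of cKO lies far above replicate 1 for Tysnd1, Clptm1, Tspan17 and Trp53rka, by 1.79 to 2.22, while the WT samples of these genes lie within 0.83 of each other at both times.

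The group means of Tysnd1 ran, from high to low, cKO after LPS, cKO at 0 h, WT at 0 h and WT after LPS. Only the first 2 of these, neighbours in that order, overlapped in their samples. The enzymes that Tysnd1 cuts and the other genes of peroxisomal beta-oxidation were not called between genotypes. Of 20 tested genes of 21 listed, limma called 0 in cKO against WT at 0 h (unadjusted p under 0.05 for 1) and 0 after LPS (4). Their median cKO-minus-WT difference was -0.03 at 0 h and 0.05 after LPS, against -0.01 and -0.03 over all tested genes.

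LPS lowered most of these peroxisomal genes. With the LPS effect averaged over genotypes, 4 of the 20 rose and 13 fell, with a median of -0.58. Over all tested genes 27.3% rose and 26.6% fell, with a median of -0.02. The fatty acid transporter Abcd2 fell by 2.27 (SE 0.20, adjusted p = 2.97e-05). The thiolase Acaa1a, a substrate of Tysnd1, rose by 0.85 (SE 0.12, adjusted p = 0.000363), and the isomerase Eci2 rose by 0.71 (SE 0.09, adjusted p = 0.000209). Of 16 genes for building peroxisomes, 2 rose and 2 fell, with a median of 0.02. The import factor Pex14 rose by 0.65 (SE 0.09, adjusted p = 0.00048) and the ubiquitin ligase Pex10 fell by 0.74 (SE 0.12, adjusted p = 0.00106). Pex16 was also called, at 0.26 (SE 0.08, adjusted p = 0.0314). It lost its call with quantile normalization (0.08), with no variance trend and when any 1 library was left out other than cKO 0 h replicate 1 or WT LPS replicate 2. In cKO against WT, 0 of these 16 were called by limma at 0 h (unadjusted p under 0.05 for 0) and 0 after LPS (3).

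Clptm1 had an rlog of 8.44 and 10.54 in the cKO samples at 0 h, against 7.48 and 8.31 in WT. With LPS its values were 9.78 and 10.66 in cKO, against 7.28 and 7.66 in WT. The lowest cKO sample, replicate 1 at 0 h, was only just above the highest WT sample, replicate 2 at 0 h. The difference between genotypes was 1.60 at 0 h and 2.75 after LPS (SE 0.61 each), ranks 26 and 5. At 0 h it was 0.55 without cKO replicate 2 and 2.65 without cKO replicate 1. In the authors' deposited table it was 2.14 at 0 h and 3.20 after LPS. The order of group means was the same as for Tysnd1. Samples overlapped between cKO after LPS and cKO at 0 h, and between WT at 0 h and WT after LPS.

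The partners known for Clptm1 were mostly too low to test: of its paralogue, the GABA-A receptor subunits and their trafficking factor, 2 of 16 listed genes passed the filter. The paralogue Clptm1l had an rlog of 6.81 and 7.16 in cKO at 0 h, against 6.36 and 6.86 in WT, and 7.38 and 7.62 in cKO after LPS, against 6.65 and 7.05 in WT. Its cKO samples overlapped the WT samples at 0 h and lay above them after LPS. The difference was 0.37 at 0 h (SE 0.23, adjusted p = 0.613) and 0.66 after LPS (SE 0.23, adjusted p = 0.144), and neither passed. Gabarap, which binds GABA-A receptors, differed by 0.14 at 0 h (SE 0.11, adjusted p = 0.711) and -0.22 after LPS (SE 0.11, adjusted p = 0.301).

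Tspan17 had an rlog of 7.47 and 9.34 in the cKO samples at 0 h, against 6.60 and 6.80 in WT. After LPS it had 8.44 and 9.07 in cKO, against 6.15 and 6.47 in WT. All 4 cKO samples were above all 4 WT samples, and the highest value was that of cKO replicate 2 at 0 h. The difference was 1.71 at 0 h and 2.45 after LPS (SE 0.50 each), ranks 19 and 8. Without cKO replicate 2 it was 0.77 at 0 h, and without cKO replicate 1 it was 2.64. The authors' deposited table gives 2.30 at 0 h and 2.92 after LPS. The group means had the order of Tysnd1, and only cKO after LPS and cKO at 0 h overlapped.

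Of Adam10 and the other TspanC8 genes, 3 of 6 were tested, and limma called 0 between genotypes (unadjusted p under 0.05 for 0 at 0 h and 1 after LPS). Adam10 is the protease that TspanC8 proteins escort. Its cKO-minus-WT difference was -0.29 at 0 h (SE 0.17, adjusted p = 0.595) and -0.01 after LPS (SE 0.17, adjusted p = 0.976). The TspanC8 relative Tspan14 differed by 0.17 at 0 h (SE 0.23, adjusted p = 0.86) and 0.70 after LPS (SE 0.23, adjusted p = 0.125). Tspan5, the other TspanC8 gene tested, differed by 0.05 at 0 h (SE 0.21, adjusted p = 0.96) and 0.11 after LPS (SE 0.21, adjusted p = 0.803). After LPS, averaged over genotypes, Tspan14 fell by 1.14 (SE 0.16, adjusted p = 0.000484) and Adam10 fell by 0.66 (SE 0.12, adjusted p = 0.00193), while Tspan5 gave -0.10 (SE 0.15, adjusted p = 0.592).

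Among other tetraspanins, 4 were called between genotypes after LPS. Of 13 tested of 20 listed, 0 were called by limma at 0 h (unadjusted p under 0.05 for 5), and after LPS 1 was called higher in cKO and 3 lower. Over all tested genes 1.51% were called higher and 2.46% lower after LPS. Tspan32, a tetraspanin of blood cells, was higher in cKO after LPS by 1.27 (SE 0.20, adjusted p = 0.0178). Lower in cKO were Tspan7, at -1.90 (SE 0.33, adjusted p = 0.0231), the leukocyte tetraspanin Cd53, at -0.94 (SE 0.13, adjusted p = 0.0156), and Tspan3, at -0.82 (SE 0.17, adjusted p = 0.036). All 4 calls were lost without cKO LPS replicate 1, without cKO LPS replicate 2 and without WT LPS replicate 1, and that of Tspan7 also without WT LPS replicate 2. With no filter on low values the calls of Tspan3, Tspan7 and Tspan32 were lost, with no variance trend that of Tspan3, and with quantile normalization those of Cd53 and Tspan3, at -0.57 (adjusted p = 0.0524) and -0.56 (adjusted p = 0.114). In the averaged LPS effect 3 of the 13 rose and 5 fell, with a median of -0.20, beside 27.3% and 26.6% of all tested genes. Tspan3 rose by 1.09 (SE 0.12, adjusted p = 9.24e-05) and Cd82 by 0.71 (SE 0.12, adjusted p = 0.00105), a call that quantile normalization ended at 0.25 (adjusted p = 0.122). Tspan32 fell by 2.0 (SE 0.14, adjusted p = 8.22e-06) and Tspan4 fell by 1.14 (SE 0.13, adjusted p = 0.000155). Cd53 gave 0.36 (SE 0.09, adjusted p = 0.00978), and with quantile normalization the sign turned to -0.32.

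Trp53rka had an rlog of 5.41 and 7.63 in the cKO samples at 0 h, against 5.32 and 5.46 in WT. Once LPS had been added it had 6.87 and 7.60 in cKO, against 4.59 and 4.46 in WT. At 0 h cKO replicate 1 lay between the 2 WT samples, so the groups overlapped, and cKO replicate 2 stood alone. After LPS both cKO samples were more than 2 log2 units above both WT samples. The difference was 1.13 at 0 h and 2.71 after LPS (SE 0.59 each), ranks 92 and 6. The value at 0 h came from 1 library: it was 0.02 without cKO replicate 2 and 2.24 without cKO replicate 1. In the authors' deposited table it was 1.92 at 0 h and 3.74 after LPS. The group means had the order of Tysnd1, with overlap between cKO after LPS and cKO at 0 h and between cKO at 0 h and WT at 0 h.

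Trp53rkb had an rlog of 5.58 and 6.33 in the cKO samples at 0 h, against 3.78 and 5.13 in WT. With LPS it had 6.86 and 6.72 in cKO, against 4.17 and 4.70 in WT. All 4 cKO samples were above all 4 WT samples, and here it was the WT samples at 0 h that lay far apart, by 1.35. The difference was 1.5 at 0 h and 2.35 after LPS (SE 0.43 each), ranks 34 and 9. At 0 h it was 0.82 without WT replicate 1 and 2.18 without WT replicate 2. The authors' deposited table gives 1.88 at 0 h and 3.24 after LPS. The group means had the order of Tysnd1, and only WT at 0 h and WT after LPS overlapped. The copies share bases but not the same spread: between cKO samples at 0 h the gap was 2.22 for Trp53rka and 0.74 for Trp53rkb.

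The partners of the kinase in KEOPS and in t6A synthesis were not called in cKO. Of 6 tested genes of 6 listed, limma called 0 at 0 h and 0 after LPS, with an unadjusted p under 0.05 for 0 at either time. The medians were 0.04 at 0 h and -0.23 after LPS. Osgep, the subunit that makes the modification, differed by 0.03 at 0 h and 0.14 after LPS (SE 0.14 each). Tprkb, which binds the kinase, differed by 0.03 and -0.25 (SE 0.14 each). In the averaged LPS effect 1 of the 6 rose and 4 fell, with a median of -0.45, beside 27.3% and 26.6% of all tested genes. The subunit Lage3 fell by 1.10 (SE 0.11, adjusted p = 6.57e-05) and the mitochondrial enzyme Osgepl1 fell by 0.81 (SE 0.15, adjusted p = 0.0022). Yrdc, which makes the precursor of t6A, gave 0.63 (SE 0.21, adjusted p = 0.0305). That call was lost when low values were not filtered and without either WT 0 h library, cKO 0 h replicate 1, cKO LPS replicate 2 or WT LPS replicate 2.

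Among p53 and its targets, 17 of 18 were tested. At 0 h limma called 0 in cKO against WT (unadjusted p under 0.05 for 6), and after LPS 0 were called higher and 2 lower. Pmaip1, the cell death gene also called Noxa, had a cKO-minus-WT difference of -1.35 after LPS (SE 0.18, adjusted p = 0.0156), and Mdm2, which encodes the ubiquitin ligase of p53, one of -0.75 (SE 0.12, adjusted p = 0.0178). Both calls were lost without either cKO LPS library and without WT LPS replicate 1, and that of Mdm2 also with quantile normalization (-0.47, adjusted p = 0.0654). That of Pmaip1 was also lost with no filter on low values (adjusted p = 0.0505). In the averaged LPS effect 4 of the 17 rose and 6 fell, with a median of -0.18, beside 27.3% and 26.6% of all tested genes. Mdm2 rose by 1.62 (SE 0.08, adjusted p = 1.95e-06) and the cell cycle inhibitor Cdkn1a by 1.07 (SE 0.19, adjusted p = 0.00152), which was not called with quantile normalization (0.42, adjusted p = 0.0798). The stress protein gene Sesn1 fell by 2.85 (SE 0.14, adjusted p = 1.77e-06) and Phlda3 fell by 1.20 (SE 0.27, adjusted p = 0.00581).

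Dgkg was the member nearest the filter on low values and the only one whose difference was smaller after LPS by more than 0.5. Its rlog was 4.27 and 4.21 in the cKO samples at 0 h, against 2.47 and 2.85 in WT. After LPS it was 2.85 and 3.33 in cKO, against 2.25 and 2.23 in WT. Within each time the cKO samples were above the WT samples, but the lowest cKO sample after LPS was level with the highest WT sample at 0 h. The difference was 1.58 at 0 h and 0.85 after LPS (SE 0.23 each), ranks 28 and 332. The authors' deposited table gives 2.94 at 0 h and 3.33 after LPS, so the smaller difference after LPS is not seen on that scale. The mean over 8 samples was 3.06, just above the filter, which Dgkg passed through its cKO samples. From high to low the groups ran cKO at 0 h, cKO after LPS, WT at 0 h and WT after LPS, and only the middle 2 overlapped.

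**Figure D2:**
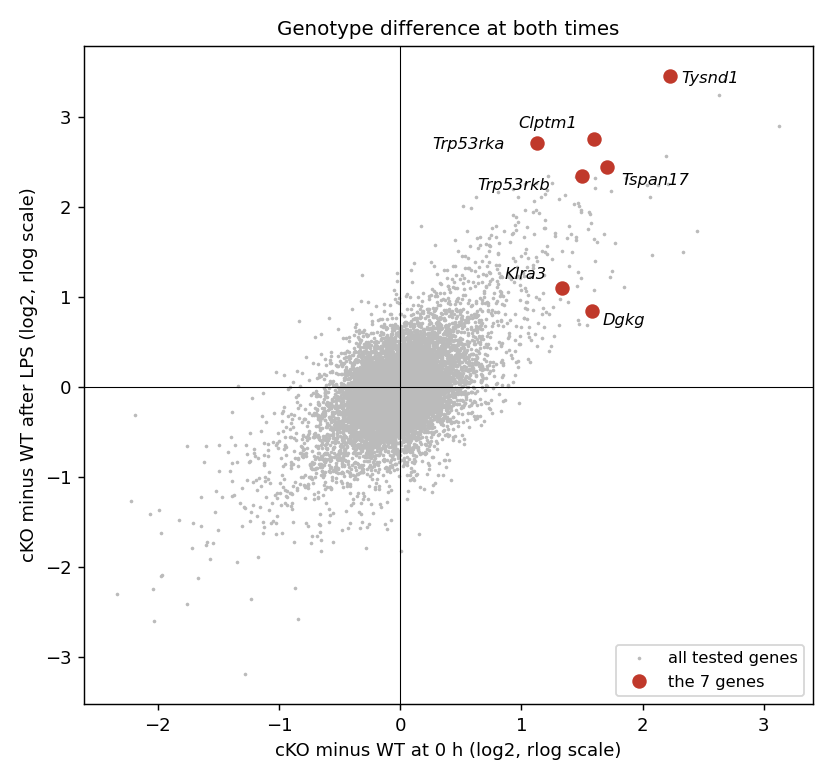
cKO-minus-WT difference in rlog (log2) after LPS on the y axis against the same difference at 0 h on the x axis, for all 11543 tested genes in grey and the 7 genes in red. Tysnd1 lies highest on the y axis at 3.46, while Dgkg and Klra3 lie to the right of most genes but lower, at 0.85 and 1.10.

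Other diacylglycerol kinases were not called between genotypes. Of 7 tested of 10 listed, limma called 0 in cKO against WT at 0 h (unadjusted p under 0.05 for 1) and 0 after LPS (3). The medians were -0.02 at 0 h and 0.34 after LPS. In the averaged LPS effect 2 of the 7 rose and 0 fell, with a median of 0.31, beside 27.3% and 26.6% of all tested genes. Dgke rose by 0.81 (SE 0.15, adjusted p = 0.00168) and Dgkh by 0.77 (SE 0.15, adjusted p = 0.00261). Of the genes that make diacylglycerol or respond to it, 16 of 23 were tested. Limma called 0 of them in cKO against WT at 0 h (unadjusted p under 0.05 for 3), and after LPS 0 higher and 1 lower. That one was protein kinase C beta, Prkcb, at -0.92 (SE 0.19, adjusted p = 0.0382). The call was lost without any 1 of the 4 WT libraries and without either cKO LPS library. It was also lost with quantile normalization (adjusted p = 0.0567), with no variance trend and with no filter on low values. In the averaged LPS effect 6 of the 16 rose and 4 fell, beside the same shares of all tested genes. The exchange factor Rasgrp1 rose by 2.33 (SE 0.14, adjusted p = 3.49e-06) and the phospholipase Plcb4 by 1.10 (SE 0.17, adjusted p = 0.00071). Rasgrp4 fell by 1.26 (SE 0.21, adjusted p = 0.00108). Prkch gave -1.40 (SE 0.40, adjusted p = 0.0179), a call lost when low values were not filtered and without cKO LPS replicate 1, WT 0 h replicate 2 or WT LPS replicate 2.

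Klra3 had an rlog of 7.66 and 7.75 in the cKO samples at 0 h, against 6.28 and 6.46 in WT. Its LPS samples had 7.39 and 7.32 in cKO, against 6.02 and 6.49 in WT. The 4 cKO samples lay close together and all above the 4 WT samples. The difference was 1.34 at 0 h and 1.10 after LPS (SE 0.19 each), ranks 55 and 207, and leaving out any single library kept it between 0.86 and 1.43. In the authors' deposited table it was 1.60 at 0 h and 1.35 after LPS. The order of group means was that of Dgkg, and only WT at 0 h and WT after LPS overlapped.

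Natural killer cell markers were set beside Klra3, since Ly49 receptors are known from those cells. Of 10 markers, 8 had an rlog below 1 in every sample: Ncr1, Nkg7, Gzma, Gzmb, Prf1, Eomes, Il2rb and Itga2. Summed over the 10, the rlog was 3.5 to 3.7 in cKO at 0 h, against 3.0 to 3.0 in WT, and 2.9 to 2.9 in cKO after LPS, against 1.9 to 2.3 in WT. Cd244a, a receptor gene and the only marker of the 10 that was tested, had 7.46 and 7.43 in cKO at 0 h, against 7.62 and 7.31 in WT, and 6.19 and 5.92 in cKO after LPS, against 6.46 and 6.00 in WT. Its groups overlapped at both times, and it was not called (-0.02 at 0 h, adjusted p = 0.983; -0.17 after LPS, adjusted p = 0.679; SE 0.20 each). Klrb1c, the gene of the marker NK1.1, had 3.26 and 3.44 in cKO at 0 h, against 2.59 and 2.71 in WT, and 3.51 and 3.34 in cKO after LPS, against 1.98 and 2.36 in WT. Its 4 cKO samples were above its 4 WT samples. Its mean was under the filter, so it was not tested. The part of these markers in the difference of Klra3 was not tested.

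Of 12 other Ly49 genes listed, 2 were tested, and limma called 0 of them in cKO against WT at either time (unadjusted p under 0.05 for 1 at 0 h and 1 after LPS). Klra17 had 6.50 and 6.09 in cKO at 0 h, against 5.54 and 5.43 in WT, and 6.28 and 5.95 in cKO after LPS, against 5.72 and 5.50 in WT. All its cKO samples were above all its WT samples. The difference between group means was 0.81 at 0 h (SE 0.21, adjusted p = 0.231) and 0.50 after LPS (SE 0.21, adjusted p = 0.209). Klra2 had -0.27 at 0 h (SE 0.35, adjusted p = 0.854) and -0.72 after LPS (SE 0.35, adjusted p = 0.274). Klra9, the gene that shares most windows with Klra3, had 2.60 and 2.78 in cKO at 0 h, against 1.84 and 1.59 in WT. After LPS it had 2.18 and 1.97 in cKO, against 1.71 and 2.04 in WT, and the groups overlapped. Klra4, Klra7 and Klra8 were listed at 0 in every sample. Klra2 rose after LPS by 1.83 (SE 0.25, adjusted p = 0.00033).

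Of the other lectin receptors of the Klr and Clec2 families, 4 of 17 were tested, and limma called 0 in cKO against WT (unadjusted p under 0.05 for 0 at 0 h and 1 after LPS). LPS raised 2 and lowered 1, beside 27.3% raised and 26.6% lowered among all tested genes. The activating receptor Klrk1, also called NKG2D, rose by 4.62 (SE 0.24, adjusted p = 2.12e-06) and Clec2d by 1.14 (SE 0.18, adjusted p = 0.000773). Klrb1a fell by 1.03 (SE 0.26, adjusted p = 0.0102), a call lost with no filter on low values (adjusted p = 0.0593). The MHC class I ligands of Ly49 receptors and the adaptors of their signalling made up a list of 8, all tested. Limma called 0 in cKO against WT (unadjusted p under 0.05 for 0 at 0 h and 2 after LPS). In the averaged LPS effect 4 rose and 1 fell, with a median of 0.42, beside the same shares of all tested genes. The phosphatase Ptpn6 rose by 0.85 (SE 0.10, adjusted p = 0.000144) and the MHC gene H2-K1 by 0.81 (SE 0.12, adjusted p = 0.00055). With quantile normalization neither was called, at 0.20 (adjusted p = 0.0927) and 0.24 (adjusted p = 0.0572). The phosphatase Inpp5d, also called SHIP1, fell by 1.32 (SE 0.17, adjusted p = 0.000242).

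Set side by side, the 7 genes fell into unlike patterns. At 0 h both cKO samples were above both WT samples in 6 of 7, the exception being Trp53rka, while 19.3% of all tested genes showed this. After LPS all 7 did, against 23.3% of all tested genes. All 4 cKO samples were above all 4 WT samples in 5 of 7, not in Trp53rka and Dgkg, against 3.16% of all tested genes. Over all tested genes, limma called 0.052% higher in cKO at 0 h and 1.51% after LPS. The choice of the 7 genes used these values, so nothing is read from the counts. The 7 were also not the 7 largest differences: their ranks ran over 6 to 92 at 0 h and 1 to 332 after LPS.

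The spread between the cKO samples at 0 h set 4 of the genes apart. Replicate 2 was above replicate 1 by 1.79 in Tysnd1, 2.1 in Clptm1, 1.87 in Tspan17 and 2.22 in Trp53rka. Such a gap of at least 1.5 was found in 78 of the 11543 tested genes, or 0.676%, and the middle of all gaps, between the 5th and the 95th percentile, ran over -0.49 to 0.63. In the cKO libraries after LPS the same 4 genes had gaps of 0.44, 0.88, 0.63 and 0.73, in the same direction. Trp53rkb, Dgkg and Klra3 had gaps of 0.74, -0.07 and 0.09 at 0 h and of -0.14, 0.48 and -0.06 after LPS. The 78 genes include Tysnd1, Clptm1, Tspan17 and Trp53rka, which were chosen for high cKO values, in this count and the next. Replicate 2 was above replicate 1 after LPS too in 74 of the 78, against 49.0% of all tested genes. The mean of the cKO samples was above that of the WT samples after LPS in 69 of the 78, against 46.0% of all tested genes. A gap as large was seen in other groups in 17 genes in cKO after LPS (0.147%), 14 genes in WT at 0 h (0.121%) and 32 genes in WT with LPS (0.277%). What sets the cKO libraries apart was not tested.

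**Figure D3:**
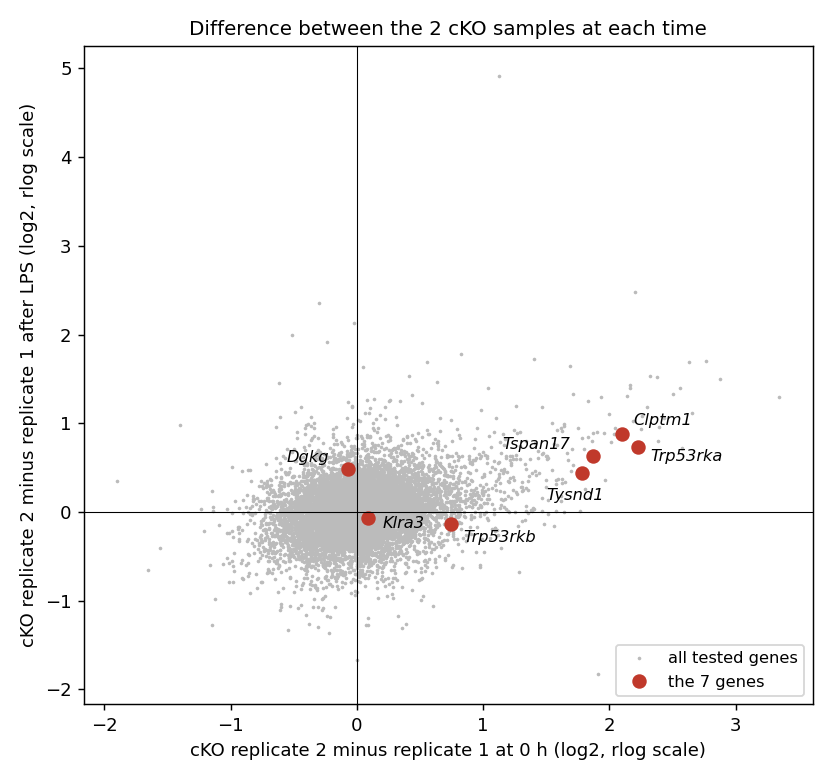
Difference between the cKO samples, replicate 2 minus replicate 1 in rlog (log2), after LPS on the y axis against 0 h on the x axis, for all 11543 tested genes in grey and the 7 genes in red. Clptm1, Trp53rka, Tspan17 and Tysnd1 lie far to the right at 1.79 to 2.22 and above 0 on the y axis, while Klra3 and Dgkg lie near 0 on the x axis.

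Likeness of profiles was measured as the root mean square (RMS) difference between 2 genes over the 8 samples, after each gene was centred on its own mean. Clptm1 and Tspan17 were the closest pair at 0.23, followed by Tspan17 and Trp53rka at 0.27 and by Clptm1 and Trp53rka at 0.30. Dgkg and Klra3 were 0.36 apart. Trp53rka and Trp53rkb, the near copies, were 0.63 apart, farther than Trp53rka was from Tysnd1 (0.55). Tysnd1 and Dgkg were the farthest pair at 1.23. These are descriptions over 8 samples that share 4 groups.

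Among tested genes other than the 7, the closest to Tspan17 was Nop9, at 0.14, against a median of 1.23 over all tested genes. Nop9, an RNA-binding protein of the nucleolus, was also the closest non-member to Clptm1 (0.28) and to Trp53rka (0.26). Its rlog was 6.37 and 8.23 in cKO at 0 h, against 5.72 and 5.98 in WT, and 7.14 and 7.95 in cKO after LPS, against 4.98 and 5.44 in WT. It thus had the same high replicate 2 in cKO. Mgat4b, a glycosyltransferase of the Golgi, came next for Clptm1 (0.29) and Tspan17 (0.23). For Tysnd1 the closest genes outside the 7 were Lsm4, of the RNA decay and splicing machinery, at 0.47, and the lysozyme gene Lyz1 at 0.53. Also outside the 7, Trp53rkb was closest to the proteasome subunit Psmd3 (0.27) and to Plbd2 (0.30). Dgkg was closest to Cyp4f18 (0.26) and Ankrd37 (0.28), and Klra3 to Txnrd3 (0.18) and Rsbn1 (0.23).

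The LPS effect averaged over genotypes was tested, on the same samples that chose the members. In this balanced design it is uncorrelated with the cKO-minus-WT difference at either time only if all groups vary alike. In cKO at 0 h the standard deviation was 1.26 for Tysnd1, 1.48 for Clptm1, 1.32 for Tspan17 and 1.57 for Trp53rka. In WT at 0 h it was 0.09, 0.59, 0.15 and 0.1, so the averaged effects of these genes are not free of the choice. Of the 7 genes, 0 rose and 1 fell, while 27.3% of all tested genes rose and 26.6% fell, 54.0% in all. Dgkg was the one that fell, by 0.78 (SE 0.16, adjusted p = 0.0034). It was lower after LPS than at 0 h in both genotypes, with 2.85 and 3.33 after LPS against 4.27 and 4.21 at 0 h in cKO, and 2.25 and 2.23 after LPS against 2.47 and 2.85 at 0 h in WT. Every LPS sample was below both 0 h samples of its genotype. Over 15 alternatives the effect was -0.94 to -0.66 and the adjusted p 0.00162 to 0.0181. A filter at a mean rlog of 5 left Dgkg out of the test. Its WT means, 2.24 after LPS and 2.66 at 0 h, were under the filter of 3. The call thus rests on a gene that passed through its cKO samples. The LPS difference was -1.15 in cKO and -0.42 in WT (SE 0.23 each). Its standard deviations were unequal too, at 0.05 in cKO and 0.27 in WT at 0 h, and 0.34 and 0.01 after LPS. The call of Dgkg is therefore not free of the choice either. The alternatives refit the same samples and cannot change that. In the authors' deposited table the log2 fold change of Dgkg with LPS was -1.88 in cKO and -2.23 in WT.

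The remaining 6 genes did not pass, with standard errors of 0.13 to 0.43. The averaged effect was 0.45 for Tysnd1 (SE 0.34, adjusted p = 0.293), 0.41 for Trp53rkb (SE 0.30, adjusted p = 0.29) and 0.15 for Clptm1 (SE 0.43, adjusted p = 0.786). It was -0.02 for Tspan17 (SE 0.36, adjusted p = 0.965), -0.08 for Trp53rka (SE 0.42, adjusted p = 0.89) and -0.23 for Klra3 (SE 0.13, adjusted p = 0.166). Among these 6, 4 passed when 1 library was left out. Tysnd1 gave 0.89 (adjusted p = 0.00287) without cKO 0 h replicate 2, and Trp53rka -0.63 (adjusted p = 0.0322) without cKO 0 h replicate 1. Trp53rkb gave 0.74 (adjusted p = 0.0328) without WT 0 h replicate 2, and Klra3 -0.35 (adjusted p = 0.0389) without WT LPS replicate 2.

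**Figure D4:**
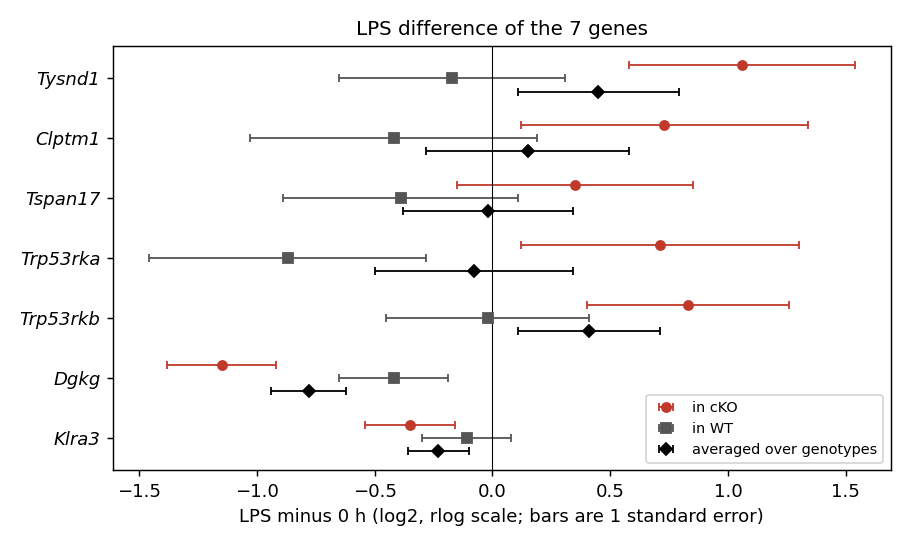
LPS-minus-0 h difference in rlog (log2) of the 7 genes in cKO (red), in WT (grey) and averaged over genotypes (black), with bars of 1 standard error. Tysnd1, Clptm1, Tspan17, Trp53rka and Trp53rkb lie right of 0 in cKO and left of 0 in WT, and Dgkg and Klra3 lie left of 0 in both.

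Split by genotype, the LPS difference is a description, since it rests on the values of the rule. In cKO it was 1.06 for Tysnd1, 0.73 for Clptm1, 0.35 for Tspan17, 0.71 for Trp53rka and 0.83 for Trp53rkb. In WT the same 5 genes had -0.17, -0.42, -0.39, -0.87 and -0.02. Their cKO values thus lay above 0 and their WT values below it. Klra3 had -0.35 in cKO and -0.11 in WT, and Dgkg had -1.15 in cKO and -0.42 in WT. In the authors' deposited table the 5 genes had 0.09 to 0.97 in cKO and -1.42 to -0.38 in WT. Over all tested genes, limma called 0 of 11543 for a difference between genotypes in the LPS effect, with an unadjusted p under 0.05 for 751.

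By position in GRCm38 (GENCODE M21), only the Trp53rk copies were on 1 chromosome. Tysnd1 lies on chromosome 10 at 61695514 to 61702773 on the plus strand, Clptm1 on chromosome 7 at 19631571 to 19665033 on the minus strand and Tspan17 on chromosome 13 at 54789377 to 54796776 on the plus strand. Trp53rka lies on chromosome 2 at 165490110 to 165493324 on the minus strand and Trp53rkb at 166792531 to 166799505 on the plus strand, 1299207 bases away. Dgkg lies on chromosome 16 at 22468461 to 22657221 and Klra3 on chromosome 6 at 130323289 to 130337574, both on the minus strand. All 7 are protein-coding genes, and 0 tested genes overlap them.

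The neighbours on the chromosome were not called. The nearest tested gene on each side of each member gave 14 genes, of which limma called 0 at 0 h and 0 after LPS (unadjusted p under 0.05 for 5 at each time). Over all tested genes 0.251% were called at 0 h and 3.97% after LPS. The share of all tested genes with an unadjusted p under 0.05 is not given here, so nothing is read from the 5. The neighbours' differences ran over -0.96 to 0.81 at 0 h and -0.86 to 0.69 after LPS. Relb, an NF-kappaB subunit gene 2133 bases from Clptm1, had -0.32 at 0 h (SE 0.12, adjusted p = 0.384) and 0.26 after LPS (SE 0.12, adjusted p = 0.24). Sar1a, a GTPase of vesicle transport 2217 bases from Tysnd1, had -0.16 (SE 0.12, adjusted p = 0.703) and -0.09 (SE 0.12, adjusted p = 0.717). Arfgef2, 6083 bases from Trp53rkb, had 0.31 (SE 0.18, adjusted p = 0.597) and 0.69 (SE 0.18, adjusted p = 0.0756). Aifm2, the ferroptosis suppressor gene 12490 bases from Tysnd1, had 0.34 (SE 0.12, adjusted p = 0.369) and 0.41 (SE 0.12, adjusted p = 0.0952). The largest at 0 h were Etv5 beside Dgkg, at -0.96 (SE 0.28, adjusted p = 0.264), and Klra17 beside Klra3, at 0.81, described above. The largest after LPS was the apolipoprotein gene Apoe beside Clptm1, at -0.86 (SE 0.29, adjusted p = 0.128), which passed with the replicate number as a block (adjusted p = 0.0468).

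**Figure D5:**
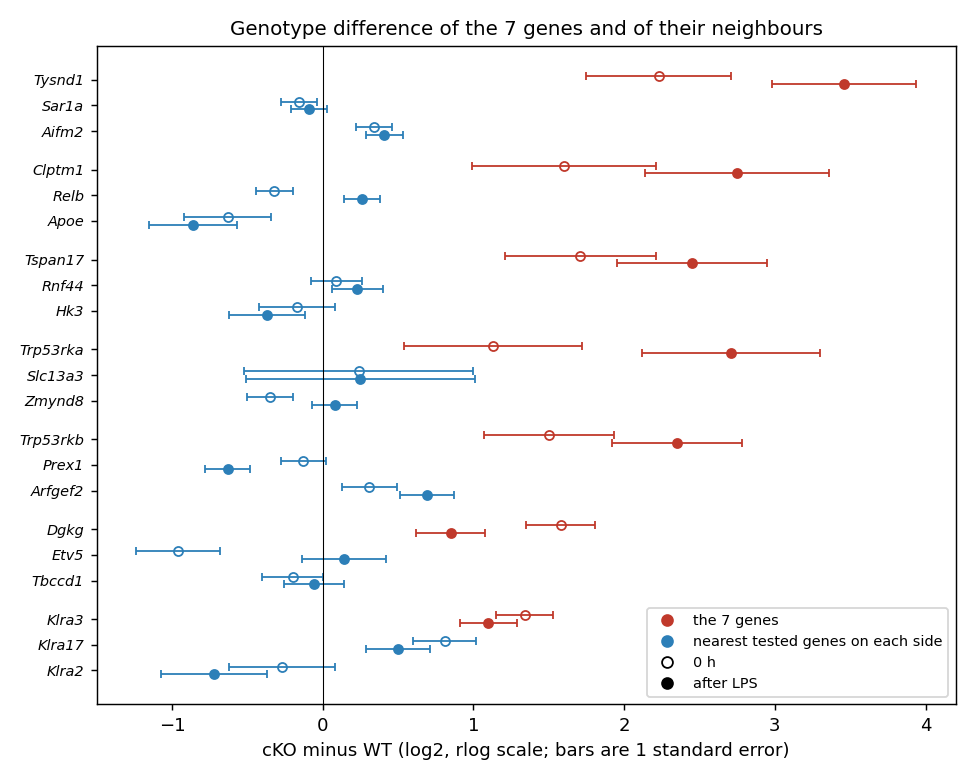
cKO-minus-WT difference in rlog (log2) of the 7 genes (red) and of the nearest tested gene on each side (blue), with open circles for 0 h, filled circles for after LPS and bars of 1 standard error. Each member lies right of its neighbours at both times, and the neighbours lie between -0.96 and 0.81. The members were chosen for high cKO values and the neighbours were not, so nothing is read from that order.

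Base composition was set beside the values, since the genotype difference after LPS moved with it. The GC content of the transcript was 65.2% for Tysnd1, 59.6% for Tspan17, 55.4% for Trp53rka, 54.5% for Clptm1, 50.9% for Trp53rkb, 49.2% for Dgkg and 38.6% for Klra3. When the tested genes were split into 10 classes of about equal size by GC content, Tysnd1 and Tspan17 were in the highest class and Klra3 in the lowest. The median cKO-minus-WT difference after LPS was -0.22 in the lowest class and 0.12 in the highest, and at 0 h -0.04 and 0.00. The differences of the 7 genes were 0.85 to 3.46 after LPS. These genes were chosen for high cKO values, so nothing is read from setting them beside medians of whole classes. The part of GC content in their differences was not tested.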

How the data were processed

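Poly(A) RNA of 8 samples was sequenced, per the labels. The tools were HISAT2 2.1.0, featureCounts, DESeq2 and CASAVA with genome GRCm38, per the submitters' processing notes, which give no settings. The annotation, the strand setting and how reads with several matches were handled were not given in the sources used here. The authors deposited 1 table of log2 values named as rlog output, with their own log2 fold changes and p-values per comparison, per the file headers. No reads were counted here. Values ran from -2.31 to 19.31, and 26727 genes were at 0 throughout.

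Testing was limited to genes whose mean rlog reached 3. All 8 samples entered a model of 4 group means in limma 3.58.1 (R 4.3.3; eBayes with a variance trend, 4 residual and 4.4 prior degrees of freedom), and p-values were adjusted over 11543 genes by Benjamini-Hochberg with a threshold of 0.05. The code was tested on simulated data. SE is the model's standard error. For cKO against WT, counts with an unadjusted p under 0.05 are given without the share over all tested genes, so nothing is read from them. Members and lists were chosen with earlier results of these data known. Named besides the members were Paxip1, up to 2 largest rises and 2 largest falls per list in the averaged LPS effect, every list gene called between genotypes, the nearest tested gene on each side and the 2 closest profiles. Members of lists with few tested genes were added after their values were seen, as were Klrb1c, Cd244a, Klra9 and the marker genes named. Positions, transcripts and GC content came from GENCODE M21 (11440 of 11543 tested genes matched), and promoters from RefSeq. Alternatives were other filters, scalings and variance settings, a replicate block and leaving out each library. Some named genes are not reported here.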

Additional observations from a re-analysis of the deposited data

How the results depend on the processing

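The averaged LPS effect of Dgkg kept its call under the 15 alternatives that tested it, and a filter at a mean rlog of 5 dropped the gene. These alternatives refit the samples that chose Dgkg, so they do not free its call from the choice. With quantile normalization the effect of Clptm1 was -0.01 and, among other genes named, Sar1a after LPS gave 0.06 and Cd53 with LPS -0.32; the cause was not tested. Leaving out each library in turn gave averaged LPS effects of 0.00 to 0.89 for Tysnd1, -0.37 to 0.68 for Clptm1, -0.49 to 0.45 for Tspan17, -0.63 to 0.48 for Trp53rka, 0.07 to 0.74 for Trp53rkb, -0.91 to -0.66 for Dgkg and -0.35 to -0.11 for Klra3. The genotype differences at 0 h were then 1.34 to 3.12 for Tysnd1, 0.55 to 2.65 for Clptm1, 0.77 to 2.64 for Tspan17, 0.02 to 2.24 for Trp53rka, 0.82 to 2.18 for Trp53rkb, 1.39 to 1.77 for Dgkg and 1.24 to 1.43 for Klra3. After LPS they were 3.24 to 3.68, 2.31 to 3.19, 2.13 to 2.76, 2.34 to 3.08, 2.09 to 2.61, 0.61 to 1.09 and 0.86 to 1.34 in the same order, and 1.12 for Dgkg with quantile normalization. On the scale of the authors' deposited table the difference of every member was larger at both times than in the main fit. Among these, it was 3.17 for Tysnd1, 2.94 for Dgkg and 1.60 for Klra3 at 0 h. After LPS it was 4.56 for Tysnd1, 2.92 for Tspan17 and 3.74 for Trp53rka. It was also 3.24 for Trp53rkb, 3.33 for Dgkg and 1.35 for Klra3 after LPS. Left-out libraries turned the sign of neighbours that were not called: Sar1a after LPS (-0.20 to 0.02), Rnf44 at 0 h (-0.00 to 0.18), Hk3 at 0 h (-0.56 to 0.23), Slc13a3 at 0 h (-0.56 to 1.04) and after LPS (-0.94 to 1.45), Prex1 at 0 h (-0.27 to 0.00), Etv5 after LPS (-0.14 to 0.42), Tbccd1 at 0 h (-0.42 to 0.02) and after LPS (-0.24 to 0.12) and Klra2 at 0 h (-0.67 to 0.13).

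Counts of genes called over the whole table depended on the settings. In cKO against WT at 0 h, 6 were higher and 23 lower; these became 46 and 68 with no filter, 2 and 7 with no variance trend and 0 and 0 with the samples of that time only. With a library left out they were 1 to 99 (99 without cKO 0 h replicate 1) and 1 to 29. After LPS, 174 were higher and 284 lower; these became 56 and 152 with no filter and 115 and 120 with quantile normalization, and 182 were lower with no variance trend. With a library left out they were 0 to 275 and 0 to 309, with 0 and 0 without either cKO LPS library and 6 and 8 without WT LPS replicate 1. A fit that leaves 1 sample in a group assumes that it varies like the others. The labels do not say what a replicate number marks. Deviations of same-numbered samples correlated at -0.04 to 0.31 between groups, above 0.1 in 4 of 6 pairs of groups and highest between cKO at 0 h and after LPS. Between 0 h and LPS within a genotype the correlation was 0.222 in WT and 0.311 in cKO. Between genotypes it was -0.042 to 0.2. The main fit left the samples unpaired, since no label says what a number marks. Pairing of same-numbered samples within a genotype remains possible. With the replicate number as a block, 21 genes were higher and 51 lower at 0 h, and 335 and 469 after LPS. That block called Clptm1l with LPS (0.38, adjusted p = 0.0148) and Apoe between genotypes after LPS (-0.86, adjusted p = 0.0468). A block of genotype and number, fitted for the LPS effect only, also called Clptm1l (0.38, adjusted p = 0.0169). Neither block changed a member's call. Depth is unknown, and 2 samples a group limit the precision.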
